A study of Mus musculus with 16 samples.

Results

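Messenger RNA of 34 genes of glycolysis and gluconeogenesis, with the genes for sugar and lactate transport and for the entry of pyruvate into mitochondria, was followed across 16 libraries of mouse colon organoids. The 34 genes are a named list of enzymes and transporters by role, and they are 34 of the 54123 genes to which the deposited transcript counts could be summed. Of the 34, 31 had enough reads to be tested. Slc2a2, Eno2 and Fbp1 did not. The 31 include Slc2a5 and Ldhb, which passed the filter on low counts with at most 24 and 30 reads in a library.

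The organoids came from the proximal or the distal colon of female mice aged 8 weeks. All of them were heterozygous for a Cre-inducible Braf V600E allele and for a Cre-dependent tdTomato reporter, and no Cre is described for these cultures. They carried lentiviral Cas9 with either a Scramble-sgRNA (the control) or a Cdx2-sgRNA, and after 4 months of culture they spent 2 days in WENR-plus medium, which supplies Wnt3a, EGF, Noggin and R-spondin 1, and then 3 days either in the same medium or in WENR-minus medium, which lacks all of these factors. This gave 8 groups of 2 libraries, from organoids of 2 mice. Each Cdx2-sgRNA line grew from a single cell and carried frameshift mutations in Cdx2, whereas no single-cell step is described for the Scramble-sgRNA lines, so that the guide and the choice of a clone cannot be told apart. With 2 libraries per group, p-values rest on the spread between libraries pooled over all 8 groups.

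Glycolysis splits glucose into pyruvate in the cytosol and yields ATP. Pyruvate is then either reduced to lactate and exported, or oxidised in mitochondria after pyruvate dehydrogenase has turned it into acetyl-CoA. Gluconeogenesis runs the reversible steps backwards and replaces the irreversible ones with its own enzymes, pyruvate carboxylase, PEP carboxykinase, fructose bisphosphatase and glucose-6-phosphatase. Cells of the colon epithelium take much of their energy from butyrate, which enters through the same transporter that carries lactate.

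Sequencing yielded between 12465194 and 18922143 counts in a library (median 16836530), and the 34 genes together took 1.08 to 2.05% of them. Mitochondrial ribosomal RNA took 15.4 to 28.0%. Cdx2 itself stood at 29.8 and 33.3 CPM (counts per 1000000 counts of the library, scaled between libraries by TMM) in proximal Cdx2-sgRNA organoids in WENR-plus medium and at 73.8 and 71.0 CPM in WENR-minus medium, against 142 and 127 CPM and 202.5 and 151 CPM in the matching Scramble-sgRNA organoids. In distal organoids labelled Cdx2-sgRNA, Cdx2 mRNA was at 62.2 and 50.2 CPM against 76.8 and 67.9 CPM in the controls in WENR-plus medium, where the groups did not overlap, and at 126 and 86.0 CPM against 112 and 110.0 CPM in WENR-minus medium, where they did. A frameshift need not lower the mRNA, so these values check the label of the distal lines only weakly. The epithelial markers Epcam, Cdh1, Krt8, Krt18, Krt19, Cdx2 and Hnf4a summed to 3846 CPM or more in every library, whereas 7 fibroblast markers summed to at most 1.11 CPM, 6 immune markers to at most 10.4 CPM and 5 endothelial markers to at most 11.6 CPM. In bulk RNA, fewer cells of a type and less RNA per cell cannot be told apart.

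Gapdh, the enzyme that oxidises glyceraldehyde 3-phosphate, ranked highest per unit of transcript length, with a median of 3426 TPM (transcripts per 1000000, which corrects for length) over the 16 libraries and a range of 1798 to 4969.7 TPM. Aldoa (2143 TPM), Gpi1 (2025 TPM), Ldha (1323 TPM), Eno1 (1237 TPM) and Pkm (1160.1 TPM) followed, and their ranges overlapped. The transporters and kinases at the entry of the pathway were lower, with medians of 118 TPM for Slc2a1, 115 TPM for Hk1 and 54.3 TPM for Hk2. Among the genes listed here under gluconeogenesis, Fbp2 had the highest median at 64.5 TPM, ahead of G6pc3 (28.6 TPM), Pcx (27.8 TPM), Pck2 (22.6 TPM) and Pck1 (8.16 TPM).

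Most steps were carried by 1 isozyme in every library, as shares of the summed TPM of the step show. Ldha made up 99.8 to 100% of lactate dehydrogenase, Fbp2 99.7 to 100% of fructose bisphosphatase, and Slc2a1 99.3 to 100% of the 3 sugar transporters read here. Pkm made up 93.9 to 98.6% of pyruvate kinase. Its transcripts with the exon that defines the M2 form (chr9:59675568-59675734, mm10, 167 bases) held 86.7 to 94.9% of the Pkm TPM, and those with the M1 exon (chr9:59675029-59675195, 167 bases) held 1.62 to 6.90%. Hexokinase and phosphofructokinase were mixed: Hk1 held 56.1 to 79.1% of the sum of Hk1 and Hk2, while Pfkp held 49.3 to 76.2%, Pfkl 23.6 to 48.0% and Pfkm 0.230 to 4.60%. The widest range was in PEP carboxykinase, where the cytosolic form Pck1 held 0 to 80.9% and the mitochondrial form Pck2 the remainder. Among lactate transporters Slc16a3 ranged from 0.0593 to 24.6%, and in enolase the muscle form Eno3 ranged from 0.149 to 13%.

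**Figure D1:**
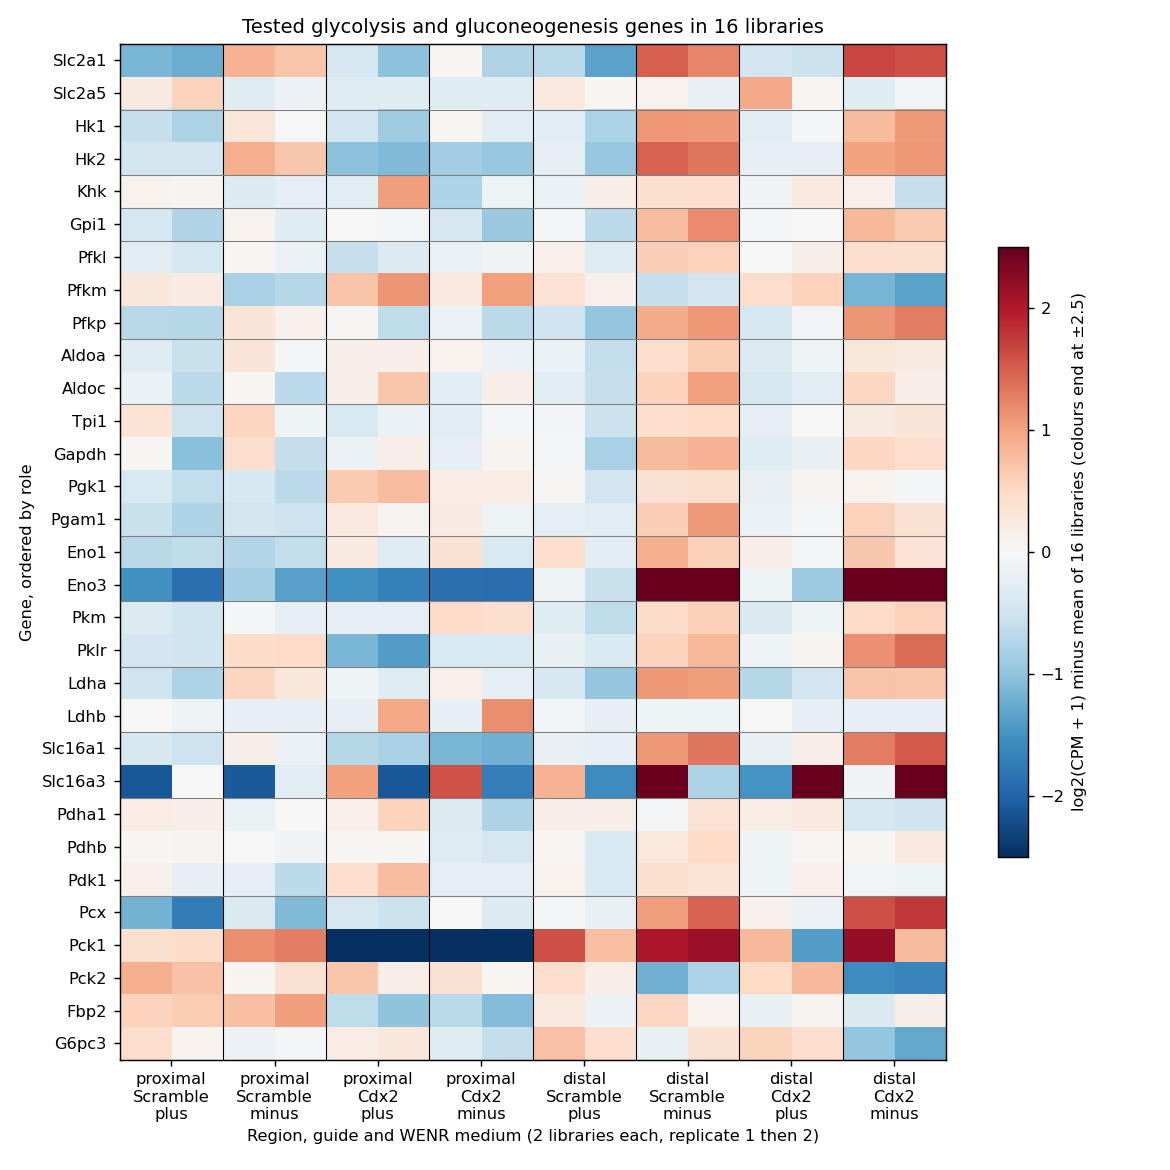
Colour map of the 31 tested genes (rows, ordered by role) in the 16 libraries (columns, 2 per group). Colour gives log2(CPM + 1) minus the mean of the gene over all libraries, and is cut at ±2.5. The red block in the distal WENR-minus columns spans most rows from Slc2a1 to Pcx, Pck1 is blue in all 4 proximal Cdx2-sgRNA libraries, and Slc16a3 changes between replicates of a group.

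Promoter sequences are given for 6 genes, chosen with their values known, that show the patterns described below. Slc2a1, Hk2 and Ldha rose together on withdrawal of the WENR factors in every line other than proximal Cdx2-sgRNA. Eno3 rose in distal organoids, and Pck1 and Fbp2 were lower in proximal Cdx2-sgRNA organoids. Each window runs 5′ to 3′ on the strand of the gene from 250 bases before to 50 bases after the RefSeq start (GRCm38.p6), and all 34 genes had one. Capitals mark ATAAA, the core of sites that CDX proteins bind (TTTAT on the other strand), and ACGTG, the core of sites that hypoxia-inducible factors bind (CACGT on the other strand). CACGTG reads the same on both strands, so each copy counts as 2 matches of ACGTG.
Slc2a1 chr4:119108495-119108794 (+): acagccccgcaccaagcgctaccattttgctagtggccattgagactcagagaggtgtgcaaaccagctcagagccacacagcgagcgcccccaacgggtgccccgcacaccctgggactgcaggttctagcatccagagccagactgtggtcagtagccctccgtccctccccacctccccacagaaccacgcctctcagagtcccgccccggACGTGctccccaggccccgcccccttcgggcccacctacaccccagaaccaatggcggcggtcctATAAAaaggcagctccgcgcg
Hk2 chr6:82774405-82774704 (-): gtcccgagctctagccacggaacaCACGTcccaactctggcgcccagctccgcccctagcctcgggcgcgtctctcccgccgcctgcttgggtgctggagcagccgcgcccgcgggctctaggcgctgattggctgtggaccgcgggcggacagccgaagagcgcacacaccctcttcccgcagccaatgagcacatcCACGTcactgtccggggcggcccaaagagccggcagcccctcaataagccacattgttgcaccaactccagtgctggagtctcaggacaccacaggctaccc
Ldha chr7:46845554-46845853 (+): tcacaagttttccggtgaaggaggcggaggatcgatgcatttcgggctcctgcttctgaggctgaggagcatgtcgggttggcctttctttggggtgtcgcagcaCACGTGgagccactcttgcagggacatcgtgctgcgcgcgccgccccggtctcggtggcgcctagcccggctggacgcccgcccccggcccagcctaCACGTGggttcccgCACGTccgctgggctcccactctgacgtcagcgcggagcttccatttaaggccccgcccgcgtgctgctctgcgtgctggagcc
Eno3 chr11:70656926-70657225 (+): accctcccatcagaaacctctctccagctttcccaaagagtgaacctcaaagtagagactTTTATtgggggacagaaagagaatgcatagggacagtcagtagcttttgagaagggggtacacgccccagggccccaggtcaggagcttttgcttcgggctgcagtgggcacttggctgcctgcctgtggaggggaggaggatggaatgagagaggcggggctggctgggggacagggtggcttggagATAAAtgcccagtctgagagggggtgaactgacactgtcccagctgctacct
Pck1 chr2:173152823-173153122 (+): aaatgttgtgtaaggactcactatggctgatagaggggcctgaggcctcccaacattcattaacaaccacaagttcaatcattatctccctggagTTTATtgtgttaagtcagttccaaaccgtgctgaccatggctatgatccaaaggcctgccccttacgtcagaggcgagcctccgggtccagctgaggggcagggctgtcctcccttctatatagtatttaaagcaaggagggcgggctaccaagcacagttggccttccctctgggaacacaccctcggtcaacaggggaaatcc
Fbp2 chr13:62858351-62858650 (-): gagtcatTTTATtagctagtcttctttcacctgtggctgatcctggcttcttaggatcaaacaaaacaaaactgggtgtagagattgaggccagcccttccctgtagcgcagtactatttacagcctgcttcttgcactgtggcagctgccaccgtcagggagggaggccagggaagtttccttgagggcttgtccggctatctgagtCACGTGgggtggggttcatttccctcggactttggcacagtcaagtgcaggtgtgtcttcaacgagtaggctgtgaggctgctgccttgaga

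On both strands, ACGTG was present in 16 of the 34 windows, against 19.6% of 32851 RefSeq windows of this length, and CACGTG in 6 of 34 against 7.15%. ATAAA was present in 8 of 34, against 40% of all windows, and CAAAGNNCA, a form of the HNF4 site, in 2 of 34 against 6.36%. The Ldha window held 5 matches of ACGTG, those of Hk2 and Fbp2 2 each and that of Slc2a1 1. ATAAA was found 2 times before Eno3 and 1 time each before Slc2a1, Pck1 and Fbp2. These matches describe the windows and are not measured binding sites.

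Glucose enters through Slc2a1 (GLUT1), the basal glucose transporter of most dividing cells. Its level was 118 and 110.1 CPM in replicates 1 and 2 of proximal Scramble-sgRNA organoids in WENR-plus medium and 483 and 425 CPM in WENR-minus medium. Distal Scramble-sgRNA organoids had 164 and 103 CPM in WENR-plus and 739 and 612 CPM in WENR-minus medium, and distal Cdx2-sgRNA organoids had 188 and 180.2 and then 837 and 799 CPM. The media did not overlap in these 3 lines. Proximal Cdx2-sgRNA organoids were apart from them, with 195 and 129 CPM in WENR-plus and 271 and 156 CPM in WENR-minus medium, which overlap. The fructose transporter Slc2a5 never exceeded 1.37 CPM, and no read of it was found in the 4 proximal Cdx2-sgRNA libraries, where 3 reads would be 0.159 to 0.223 CPM. Khk, which phosphorylates fructose, ranged from 2.60 to 11.6 CPM and passed in no comparison without a block.

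Hexokinases trap glucose in the cell. Hk2, the form tied to growth and to low oxygen, was at 145 and 144 CPM in WENR-plus and 375 and 316 CPM in WENR-minus libraries of proximal Scramble-sgRNA organoids. In the distal lines it went from 167 and 102 to 557 and 506 CPM with Scramble-sgRNA and from 172 and 171 to 401 and 420.0 CPM with Cdx2-sgRNA. The 4 proximal Cdx2-sgRNA libraries were all low, with 97.2 and 91.7 CPM in WENR-plus and 108 and 103 CPM in WENR-minus medium. The ubiquitous Hk1 was steadier: 153 and 131 against 284 and 228 CPM in proximal Scramble-sgRNA, 163 and 123 against 235 and 190.4 CPM in proximal Cdx2-sgRNA, 189.6 and 132 against 489 and 479.8 CPM in distal Scramble-sgRNA and 189.8 and 222 against 399 and 478 CPM in distal Cdx2-sgRNA organoids, WENR-plus first. All WENR-minus libraries of a line were above its WENR-plus libraries.

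Phosphofructokinase sets the pace of glycolysis, and its subunits moved in opposite directions. Pfkp, the platelet form, was at 222 and 218 CPM in WENR-plus and 451 and 385 CPM in WENR-minus medium in proximal Scramble-sgRNA organoids, at 255 and 183 and 687 and 761 CPM in distal Scramble-sgRNA organoids, and at 263 and 341 and 778 and 877 CPM in distal Cdx2-sgRNA organoids. Pfkm, the muscle form, fell in the same lines, from 11.1 and 10.5 to 4.64 and 5.05 CPM, from 11.8 and 9.89 to 5.69 and 6.09 CPM and from 12.5 and 13.9 to 3.47 and 2.93 CPM. In proximal Cdx2-sgRNA organoids neither passed: Pfkp was at 368 and 229.7 and 319 and 224 CPM and Pfkm at 15.2 and 20.4 and 10.8 and 19.2 CPM. The liver form Pfkl stayed between 198 and 454 CPM, with its 2 highest values, 454 and 440.3 CPM, in distal Scramble-sgRNA organoids in WENR-minus medium. Gpi1, which feeds this step, ranged from 961 and 676 CPM in proximal Cdx2-sgRNA organoids to 2180.1 and 2899 CPM in distal Scramble-sgRNA organoids, both in WENR-minus medium.

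Further down the pathway, Eno3, an enolase best known from muscle, ranged 112-fold between its lowest and highest library. It stood at 8.81 and 6.23 CPM in WENR-plus and at 212 and 95.1 CPM in WENR-minus libraries of distal Scramble-sgRNA organoids, and at 8.82 and 4.71 and 140.2 and 86.0 CPM with Cdx2-sgRNA. No proximal library exceeded 5.02 CPM. Pklr, the pyruvate kinase of liver and gut, was at 50.3 and 49.6 and 96.7 and 98.4 CPM in proximal Scramble-sgRNA, 31.1 and 26.1 and 53.9 and 53.9 CPM in proximal Cdx2-sgRNA, 61.2 and 53.6 and 105 and 126 CPM in distal Scramble-sgRNA and 64.6 and 73.1 and 155 and 186 CPM in distal Cdx2-sgRNA organoids, WENR-plus first. It is the one gene of the 34 called higher on withdrawal in all 4 lines without a block. With a replicate block per culture Hk1 was as well. Pkm ranged from 1239.7 to 2887 CPM, Pgk1, which makes ATP from 1,3-bisphosphoglycerate, from 676 to 1808 CPM and Pgam1, the mutase after it, from 358 to 1281 CPM.

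Several abundant enzymes passed in several comparisons with smaller spans, and their replicates are given here with the WENR-plus pair before the WENR-minus pair. Gpi1, which turns glucose 6-phosphate into fructose 6-phosphate, was at 943 and 764, then 1368 and 1041 CPM in proximal Scramble-sgRNA, 1291 and 1249, then 961 and 676 CPM in proximal Cdx2-sgRNA, 1245 and 815, then 2180.1 and 2899 CPM in distal Scramble-sgRNA, and 1250.2 and 1291, then 2288 and 2014 CPM in distal Cdx2-sgRNA organoids. The WENR-minus pair was higher in every line other than proximal Cdx2-sgRNA, where it was lower. Pfkl was at 242 and 216, then 304 and 267 CPM in proximal Scramble-sgRNA, 198 and 231, then 263 and 277 CPM in proximal Cdx2-sgRNA, 319 and 234, then 454 and 440.3 CPM in distal Scramble-sgRNA, and 295 and 325, then 397 and 387 CPM in distal Cdx2-sgRNA organoids. Pgk1 was at 812 and 694, then 808 and 676 CPM in proximal Scramble-sgRNA, 1683 and 1808, then 1215 and 1214 CPM in proximal Cdx2-sgRNA, 1077 and 757, then 1381 and 1396 CPM in distal Scramble-sgRNA, and 935 and 1111, then 1134 and 1024 CPM in distal Cdx2-sgRNA organoids. Its 4 proximal Cdx2-sgRNA libraries stood above the 4 proximal Scramble-sgRNA libraries. Pgam1 was at 415 and 358, then 446 and 431 CPM in proximal Scramble-sgRNA, 727 and 642, then 713 and 563 CPM in proximal Cdx2-sgRNA, 528 and 506, then 944 and 1281 CPM in distal Scramble-sgRNA, and 556 and 590.5, then 912 and 801 CPM in distal Cdx2-sgRNA organoids, and Pkm, which makes pyruvate, at 1509 and 1365, then 1859.7 and 1646 CPM in proximal Scramble-sgRNA, 1632 and 1628, then 2679 and 2520.0 CPM in proximal Cdx2-sgRNA, 1557 and 1239.7, then 2633 and 2887 CPM in distal Scramble-sgRNA, and 1499.6 and 1775, then 2695 and 2878 CPM in distal Cdx2-sgRNA organoids. For Pkm the media did not overlap in any line. Pdk1 was at 240.4 and 190.4, then 185 and 140.5 CPM in proximal Scramble-sgRNA, 297 and 378, then 186 and 186 CPM in proximal Cdx2-sgRNA, 234 and 169, then 292 and 279.7 CPM in distal Scramble-sgRNA, and 204 and 239, then 210.4 and 201.6 CPM in distal Cdx2-sgRNA organoids.

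Ldha reduces pyruvate to lactate, and Slc16a1 (MCT1) carries lactate and butyrate across the membrane. Ldha was at 951 and 787 CPM and 1928 and 1634 CPM in proximal Scramble-sgRNA organoids in WENR-plus and WENR-minus medium, at 1000.3 and 687 and 2829 and 2769 CPM in distal Scramble-sgRNA and at 819 and 953 and 2187 and 2168 CPM in distal Cdx2-sgRNA organoids. Slc16a1 was at 166 and 154 and 244 and 198 CPM, 194 and 192 and 467 and 558 CPM, and 195 and 246 and 536 and 643 CPM in the same order. Proximal Cdx2-sgRNA organoids again differed, as Ldha overlapped between media (1240.3 and 1074 against 1461 and 1121 CPM) and Slc16a1 was lower in WENR-minus medium (134 and 126 against 99.3 and 95.7 CPM).

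**Figure D2:**
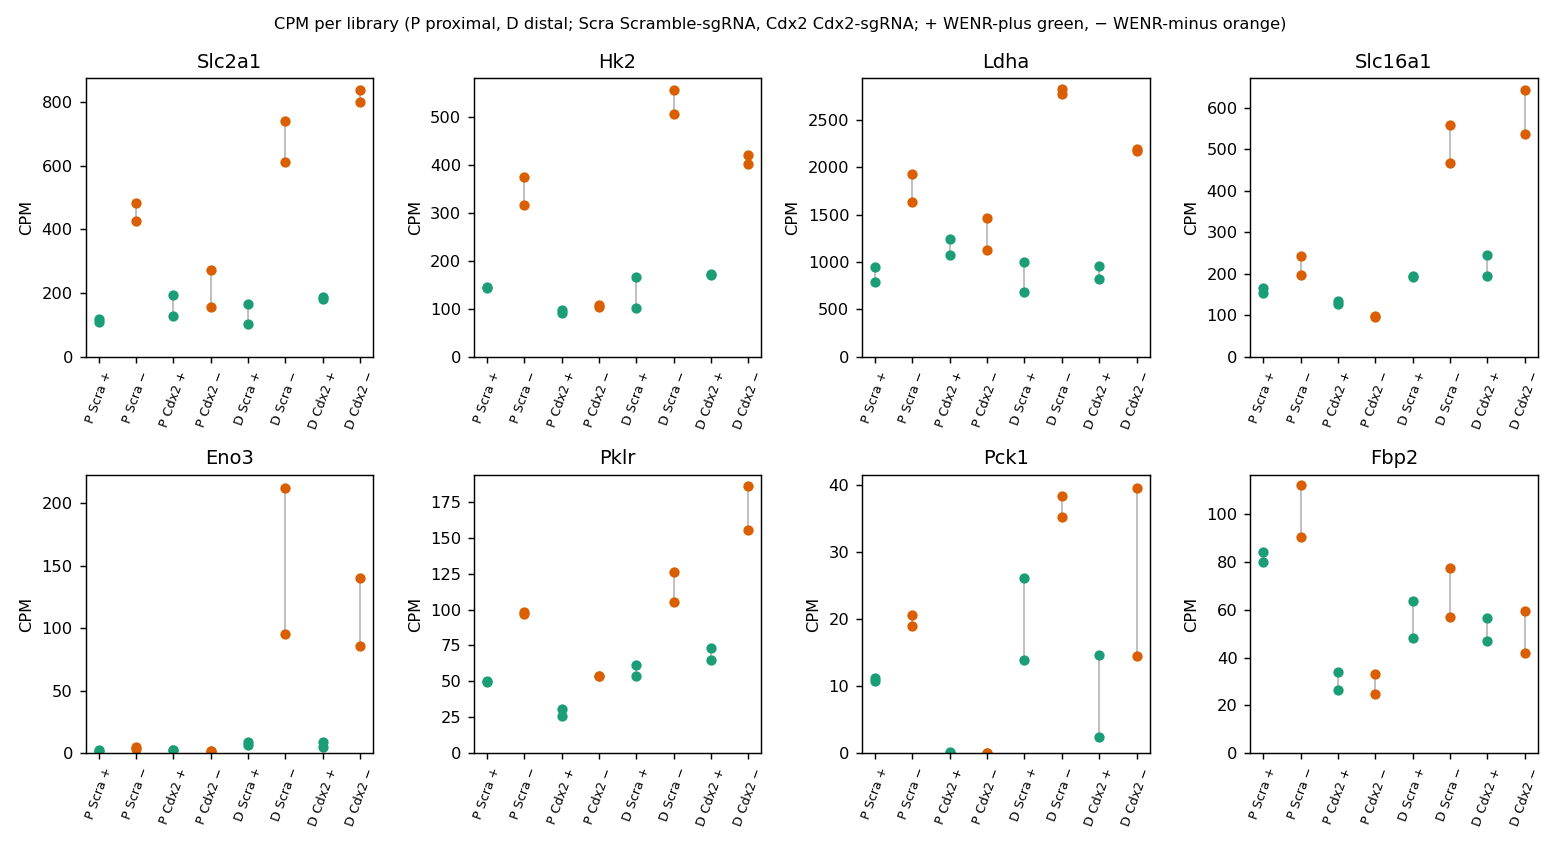
CPM of 8 genes in each library, with linear axes that start at 0. Each point is 1 library, a grey line joins the 2 libraries of a group, green is WENR-plus and orange WENR-minus medium. Slc2a1, Hk2, Ldha and Slc16a1 are higher in the WENR-minus than in the WENR-plus libraries of the same line in 3 lines, by least for Slc16a1 in proximal Scramble-sgRNA organoids (244 and 198 against 166 and 154 CPM), Eno3 is high in distal WENR-minus libraries alone among these 8 groups, and Pck1 is at or near 0 in proximal Cdx2-sgRNA organoids.

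Pyruvate that is not turned to lactate meets pyruvate dehydrogenase, whose subunits are Pdha1 and Pdhb and whose inhibitory kinase is Pdk1, or pyruvate carboxylase (Pcx), the first enzyme of gluconeogenesis. Pcx rose from 72.6 and 65.6 CPM to 155 and 209 CPM in distal Scramble-sgRNA and from 80.2 and 67.1 to 229 and 256 CPM in distal Cdx2-sgRNA organoids. Proximal organoids were lower, with 32.1 and 21.5 and 57.6 and 34 CPM with Scramble-sgRNA and 55.2 and 51.0 and 74.9 and 58.6 CPM with Cdx2-sgRNA. Pdk1 stayed between 140.5 and 378 CPM, and the highest values, 297 and 378 CPM, were those of proximal Cdx2-sgRNA organoids in WENR-plus medium. Pdha1 ranged from 185 to 472 CPM and Pdhb from 27.9 to 53.3 CPM.

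PEP carboxykinase commits oxaloacetate to glucose or glycerol. Cytosolic Pck1 was at 10.7 and 11.2 CPM in WENR-plus and 18.9 and 20.6 CPM in WENR-minus libraries of proximal Scramble-sgRNA organoids, at 26.2 and 13.9 and 35.1 and 38.3 CPM in distal Scramble-sgRNA and at 14.7 and 2.38 and 39.5 and 14.5 CPM in distal Cdx2-sgRNA organoids, where the replicates were far apart. In proximal Cdx2-sgRNA organoids it was at 0.116 and 0.0528 CPM and 0.0742 and 0 CPM, that is at most 2 reads in a library. Mitochondrial Pck2 was lower in WENR-minus medium in every line other than proximal Cdx2-sgRNA, where the media overlapped, with 68.2 and 60.6 and 37.4 and 47.0 CPM, 59.2 and 40.4 and 47.1 and 37.5 CPM, 49.0 and 40.8 and 15.2 and 20.3 CPM, and 51.6 and 63.8 and 11.4 and 10.8 CPM in proximal Scramble-sgRNA, proximal Cdx2-sgRNA, distal Scramble-sgRNA and distal Cdx2-sgRNA organoids. Pck1 thus held 28.9 to 38.6% of the PEP carboxykinase TPM in distal Scramble-sgRNA organoids in WENR-plus medium and 68.2 to 72.3% in WENR-minus medium. Fbp2, a fructose bisphosphatase, was at 80.0 and 84.0 and 90.6 and 112 CPM in proximal Scramble-sgRNA and at 34.2 and 26.3 and 33.2 and 24.8 CPM in proximal Cdx2-sgRNA organoids, at 63.8 and 48.3 and 77.6 and 57.2 CPM in distal Scramble-sgRNA, and at 46.9 and 56.5 and 41.8 and 59.6 CPM in distal Cdx2-sgRNA organoids, so that the 4 proximal Cdx2-sgRNA libraries were the lowest. G6pc3, the ubiquitous glucose-6-phosphatase, ranged from 4.93 to 22.9 CPM.

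The first comparison asks what withdrawal of Wnt3a, EGF, Noggin and R-spondin 1 does within each line. In proximal Scramble-sgRNA organoids 9 of the 31 tested genes were higher in WENR-minus than in WENR-plus medium and 1 was lower, while 16.4% of all 15289 tested genes were called higher and 12.9% lower at an adjusted p under 0.05 (edgeR quasi-likelihood test, Benjamini-Hochberg). The median log2 fold change was 0.29 over the 31 genes and -0.06 over all genes. Slc2a1 rose most (log2 fold change 1.99 ± 0.29, adjusted p = 0.000875, here and below with the SE), followed by Hk2 (1.26 ± 0.19, adjusted p = 0.00106), Ldha (1.04 ± 0.21, adjusted p = 0.00409) and Pklr (0.97 ± 0.15, adjusted p = 0.00103). Pfkp (0.93 ± 0.25, adjusted p = 0.0185), Hk1 (0.85 ± 0.21, adjusted p = 0.0129), Pcx (0.77 ± 0.27, adjusted p = 0.049), Aldoa (0.58 ± 0.20, adjusted p = 0.0459) and Slc16a1 (0.47 ± 0.16, adjusted p = 0.0497) rose less. Pfkm fell (-1.15 ± 0.27, adjusted p = 0.0084). None of Tpi1, Gapdh, Pgk1 and Pgam1 passed. The count of 10 became 4 when replicate 1 in WENR-minus medium was left out, and 6 or 5 when replicate 1 or 2 in WENR-plus medium was, and Slc2a1, Hk2, Pklr and Ldha were called in each of these refits. Slc16a1, Pfkp and Aldoa were called in 1 of the 4 refits each.

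Distal Scramble-sgRNA organoids showed the broadest rise. Of 31 genes, 18 were higher and 2 lower, against 20.3% and 20.1% of all genes, and the median log2 fold change was 0.89 against -0.11. Calls covered transport, both hexokinases, Gpi1, Pfkl and Pfkp, both aldolases, Gapdh, Pgk1, Pgam1, Eno3, both pyruvate kinases, Ldha, Slc16a1, Pdhb and Pcx. The 5 largest rises were those of Eno3 (4.35 ± 0.45, adjusted p = 5.96e-05), Slc2a1 (2.34 ± 0.30, adjusted p = 0.000163), Hk2 (1.98 ± 0.20, adjusted p = 5.10e-05), Ldha (1.73 ± 0.21, adjusted p = 0.000141) and Pfkp (1.72 ± 0.26, adjusted p = 0.00041). Gapdh, which passed in no other comparison without a block, rose as well (1.20 ± 0.39, adjusted p = 0.0291), but this call was lost in 3 of 4 refits that left out a library (adjusted p = 0.0828 to 0.175). Of the 20 calls, 15 were made in every such refit. Pck2 (-1.34 ± 0.23, adjusted p = 0.000861) and Pfkm (-0.88 ± 0.27, adjusted p = 0.0212) fell, though Pfkm was called in 0 of the 4 refits (adjusted p up to 0.142).

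Distal organoids labelled Cdx2-sgRNA had 12 of 31 genes higher and 4 lower, against 23% and 24% of all genes, with a median of 0.58 against -0.10. Eno3 (4.06 ± 0.45, adjusted p = 3.57e-05), Slc2a1 (2.15 ± 0.29, adjusted p = 0.000133), Pcx (1.72 ± 0.27, adjusted p = 0.000312), Pfkp (1.45 ± 0.26, adjusted p = 0.000714) and Slc16a1 (1.42 ± 0.16, adjusted p = 4.51e-05) rose most. Pck2 (-2.38 ± 0.24, adjusted p = 2.06e-05), Pfkm (-2.04 ± 0.28, adjusted p = 0.000137), G6pc3 (-1.76 ± 0.25, adjusted p = 0.000167) and Pdha1 (-0.68 ± 0.19, adjusted p = 0.0124) fell. Slc2a1, Hk1, Hk2, Pfkp, Pklr, Ldha, Slc16a1 and Pcx were higher and Pfkm lower in this line as in both Scramble-sgRNA lines, with all libraries in the fit. These 9 genes are 90.0% of the calls in proximal Scramble-sgRNA, 45.0% of those in distal Scramble-sgRNA and 56.3% of those in distal Cdx2-sgRNA organoids. Over all tested genes, the calls shared in direction by the same 3 lines were 76.7%, 55.7% and 47.9% of the calls in each.

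In proximal Cdx2-sgRNA organoids withdrawal gave 2 genes higher and 2 lower of 31, near the background of 8.32% and 5.17% of all genes. Pklr (0.92 ± 0.15, adjusted p = 0.00406) and Pkm (0.67 ± 0.16, adjusted p = 0.02) rose, and Pdha1 (-0.91 ± 0.19, adjusted p = 0.0121) and Pdk1 (-0.86 ± 0.20, adjusted p = 0.0177) fell. The median over the 31 genes was -0.10, and that over all genes -0.03. Slc2a1 (0.40 ± 0.28, adjusted p = 0.394), Hk2 (0.16 ± 0.19, adjusted p = 0.642) and Ldha (0.16 ± 0.21, adjusted p = 0.679) did not pass. With a replicate block per culture, which compares each culture with itself, 9 genes passed, 3 higher and 6 lower, against 15.2% and 11.2% of all genes. Slc16a1 (log2 fold change -0.42 ± 0.12, adjusted p = 0.0332), Pgk1 (-0.52 ± 0.17, adjusted p = 0.0466), G6pc3 (-0.74 ± 0.24, adjusted p = 0.0481) and Khk (-1.04 ± 0.33, adjusted p = 0.0422) were then lower and Hk1 (0.58 ± 0.14, adjusted p = 0.0131) higher. Pkm was lost whichever library was left out. Without replicate 2 in either medium 1 of the 4 calls was left, and 2 without replicate 1 in WENR-minus medium.

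**Figure D3:**
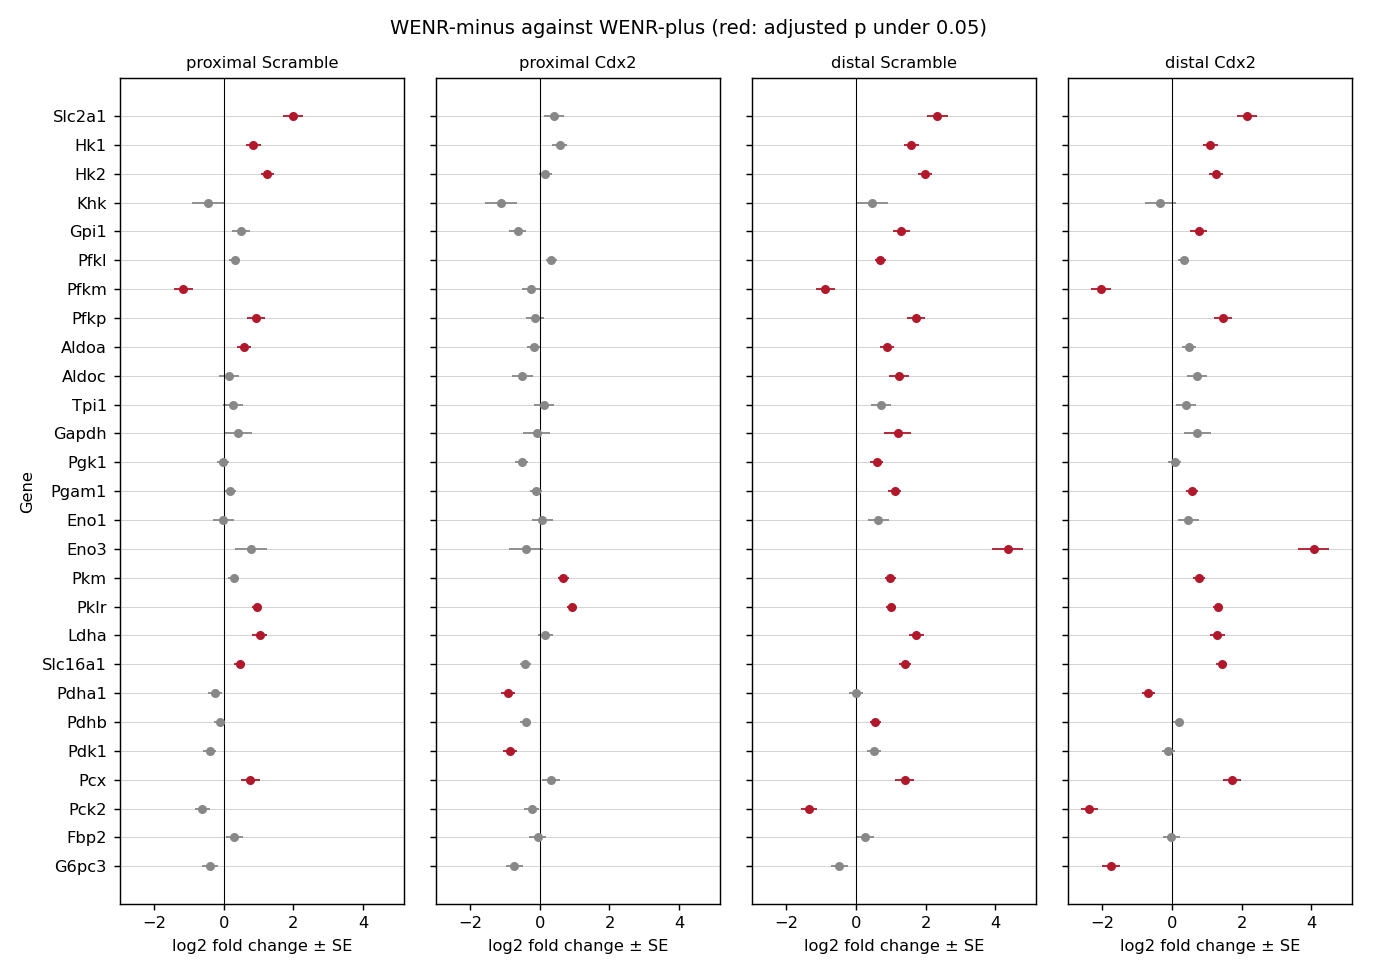
Log2 fold change (x axis) of WENR-minus against WENR-plus medium in the 4 lines, with the standard error as a bar, for the tested genes other than Slc2a5, Ldhb, Slc16a3 and Pck1, whose errors are wide. Red points have an adjusted p under 0.05. Red points lie mostly to the right of 0 in distal organoids, with Eno3 above 4, and only Pkm, Pklr, Pdha1 and Pdk1 are red in proximal Cdx2-sgRNA organoids.

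The same withdrawal moved markers of cell state. Of 15 colonocyte markers (such as Krt20, Car1, Aqp8 and Slc26a3), 13 rose in proximal Scramble-sgRNA, 13 in distal Scramble-sgRNA and 11 in distal Cdx2-sgRNA organoids (where 1 fell), and 2 in proximal Cdx2-sgRNA organoids. Their summed level went from 696-806 to 10209-14582 CPM, from 657-1242 to 13494-21535 CPM, from 1183-1586 to 29219-30713 CPM and from 358-408 to 1016-1891 CPM in these lines, and at most 1 of the 15 was at 0 in a group. Of 15 proliferation markers, 14 fell in each of the first 3 lines and 0 in proximal Cdx2-sgRNA organoids, where their sum was 854-1069 CPM in WENR-plus and 909-1017 CPM in WENR-minus medium (the other sums fell from at least 1503 to at most 699.9 CPM). Of 10 stem cell markers, 8 fell in proximal Scramble-sgRNA, 9 in each distal line and 5 in proximal Cdx2-sgRNA organoids, and of 7 epithelial markers 6, 6, 6 and 5 rose in proximal Scramble-sgRNA, distal Scramble-sgRNA, distal Cdx2-sgRNA and proximal Cdx2-sgRNA organoids. In the same order, 4, 4, 4 and 0 of 9 tested goblet cell markers rose, and 6, 6, 5 and 0 of 9 tested enteroendocrine markers did, with 1 lower in each of the first 3 lines. The part of these cell states in the changes of glycolytic genes was not tested.

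Other genes of sugar and pyruvate metabolism outside the 34 were read from a list of 60, of which 50 were tested. In distal Scramble-sgRNA organoids 19 of them rose and 6 fell, against 20.3% and 20.1% of all genes. The counts were 15 and 11 in distal Cdx2-sgRNA (against 23% and 24%) and 9 and 1 in proximal Scramble-sgRNA organoids (against 16.4% and 12.9%). They were 2 and 5 in proximal Cdx2-sgRNA organoids, against 8.32% and 5.17%. Pfkfb4, which makes the activator fructose 2,6-bisphosphate, rose in proximal Scramble-sgRNA, distal Scramble-sgRNA and distal Cdx2-sgRNA organoids (log2 fold changes 1.53 ± 0.46, adjusted p = 0.0277; 2.25 ± 0.46, adjusted p = 0.00265; 2.64 ± 0.46, adjusted p = 0.00071). Hkdc1, a further hexokinase, rose in Scramble-sgRNA organoids of both regions (3.23 ± 0.90, adjusted p = 0.0203 proximally, 2.72 ± 0.88, adjusted p = 0.0283 distally). In proximal Cdx2-sgRNA organoids Pygb, a glycogen phosphorylase, rose (1.58 ± 0.19, adjusted p = 0.00118), while Ldhd, the lactate dehydrogenase for the D form, fell by 1.70 ± 0.37, adjusted p = 0.0131, on the log2 scale.

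The second comparison asks what the Cdx2-sgRNA changes at a given region and medium. In proximal organoids in WENR-minus medium 4 of 31 genes were higher and 6 lower than with Scramble-sgRNA, against 12.7% and 18.3% of all genes, and the median log2 fold change was -0.27 against 0.00 over all genes. Pck1 was at least 104-fold lower, with the Cdx2-sgRNA libraries taken at 3 reads each (adjusted p = 0.000296). Fbp2 (-1.81 ± 0.25, adjusted p = 0.000303), Hk2 (-1.71 ± 0.20, adjusted p = 9.29e-05), Slc16a1 (-1.18 ± 0.16, adjusted p = 0.000319), Slc2a1 (-1.09 ± 0.29, adjusted p = 0.014) and Pklr (-0.86 ± 0.15, adjusted p = 0.00131) were lower. Pfkm (1.63 ± 0.27, adjusted p = 0.00102), Pgk1 (0.71 ± 0.18, adjusted p = 0.0132), Pkm (0.57 ± 0.16, adjusted p = 0.0205) and Pgam1 (0.54 ± 0.18, adjusted p = 0.0373) were higher. Hk2, Pfkm, Pklr, Slc16a1, Pck1 and Fbp2 were called whichever library was left out, and the count of calls stayed between 7 and 10.

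With the factors present, proximal Cdx2-sgRNA organoids had 4 genes higher and 5 lower, against 9.94% and 14.9% of all genes. Pck1 was at least 66.1-fold lower (adjusted p = 0.00111). Slc2a5, which passed the filter on low counts only through the libraries where it was higher, had 0 reads in both libraries against 9 and 14 with Scramble-sgRNA, and its call was lost whichever library was left out. Fbp2 (-1.44 ± 0.25, adjusted p = 0.00187), Pklr (-0.81 ± 0.15, adjusted p = 0.00285) and Hk2 (-0.61 ± 0.19, adjusted p = 0.0381) were lower, while Pgk1 (1.21 ± 0.19, adjusted p = 0.000993), Pcx (0.98 ± 0.27, adjusted p = 0.0206), Pgam1 (0.82 ± 0.18, adjusted p = 0.00665) and Pdk1 (0.65 ± 0.20, adjusted p = 0.0355) were higher. The median over the 31 genes was 0.41, against -0.05 over all genes. The count of 9 became 4 without replicate 2 of Scramble-sgRNA and 5 without replicate 2 of Cdx2-sgRNA organoids, and Pgk1, Pklr, Pck1 and Fbp2 were called in every refit. Hk2 was called in 0 of the 4 refits (adjusted p up to 0.159) and Pcx in 1.

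Distal organoids changed little by this test. In WENR-minus medium 1 gene was higher, Pklr (0.56 ± 0.15, adjusted p = 0.0358), and 1 lower, G6pc3 (-1.39 ± 0.25, adjusted p = 0.00876), against 4.5% and 5.25% of all genes. Both calls were lost without replicate 2 of either group, and 1 was left without replicate 1 of either group. In WENR-plus medium 0 genes passed in either direction, against 0.137% and 0.124% of all genes by edgeR, and 0 of the 31 had an unadjusted p under 0.05 (6.36% of all genes did). DESeq2 called 0 of them too, against 0.794% of all genes higher and 0.614% lower. Of the named genes, Hk2 differed by 0.35 ± 0.19 and Pck1 by -1.24 ± 0.66 on the log2 scale there.

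**Figure D4:**
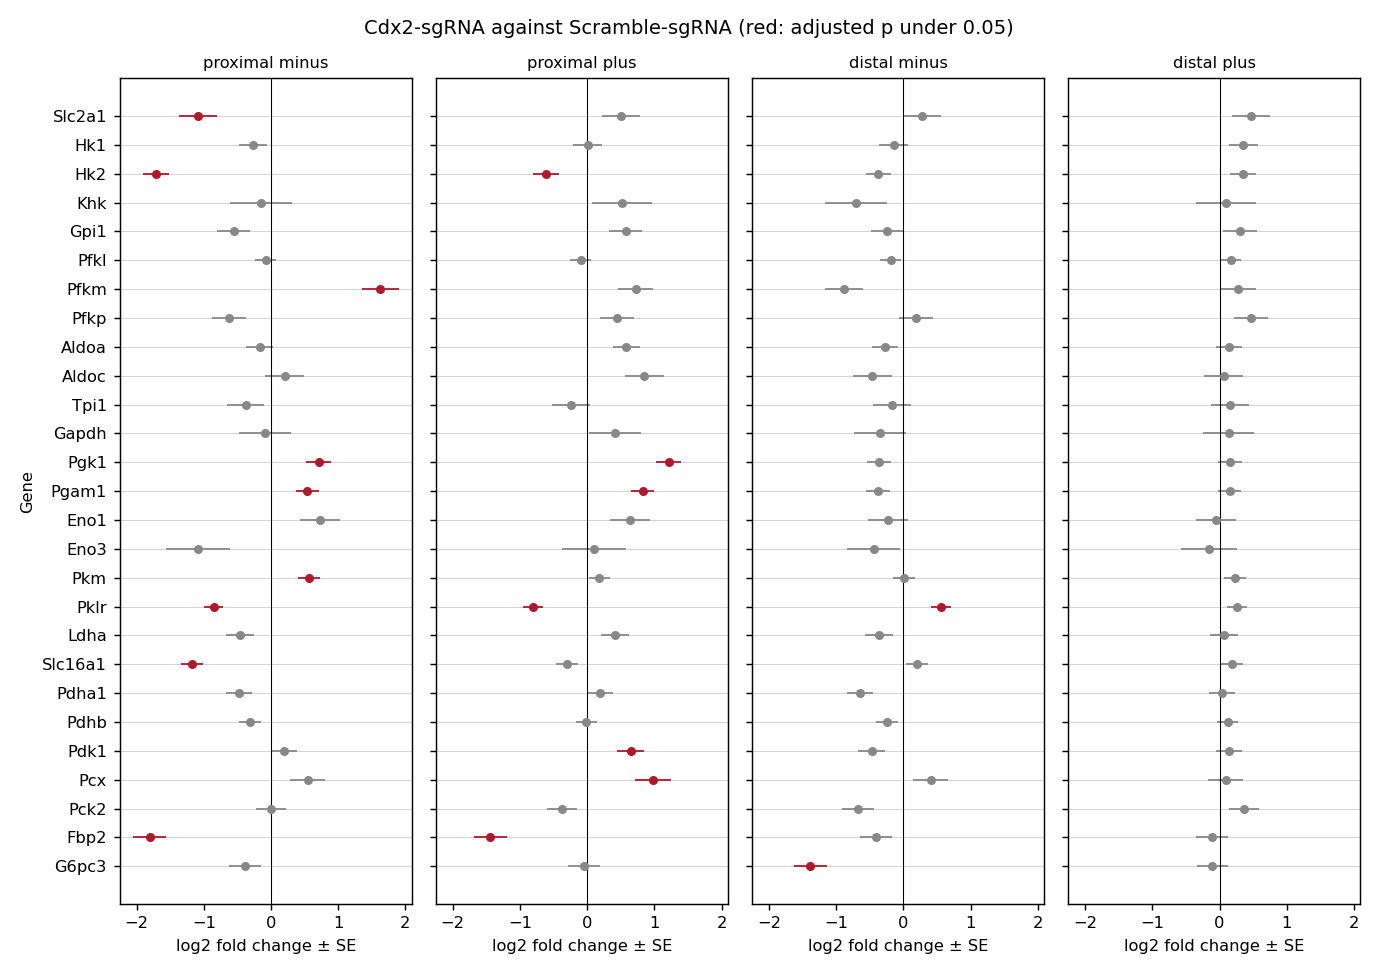
Log2 fold change (x axis) of Cdx2-sgRNA against Scramble-sgRNA organoids by region and medium, with the standard error as a bar, for the tested genes other than Slc2a5, Ldhb, Slc16a3 and Pck1. Red points have an adjusted p under 0.05. Fbp2, Hk2 and Pklr are red and left of 0 in both proximal panels (Hk2 in WENR-plus medium only with all 4 libraries), the distal WENR-minus panel has 2 red points and the distal WENR-plus panel has 0.

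Cell type markers moved in the proximal comparison as well. In WENR-minus medium 13 of 15 colonocyte markers, 9 of 9 tested goblet cell markers and 8 of 9 tested enteroendocrine markers were lower in Cdx2-sgRNA organoids. Goblet cell markers summed to 56.9-74.1 CPM against 6333-7555 CPM, and enteroendocrine markers to 0.951-2.15 CPM against 147-232 CPM, with 1 of 10 enteroendocrine markers at 0 in each group. Of 15 proliferation markers 6 were higher and 1 lower. In WENR-plus medium 0 proliferation markers were higher and 8 lower, and 8 colonocyte, 7 goblet cell and 6 enteroendocrine markers were lower, with 1 colonocyte marker higher. Whether these shifts account for the lower Pck1, Fbp2 and Hk2 was not tested. Among the 50 tested genes of the wider list, 26 were lower and 7 higher in WENR-minus medium, against 18.3% and 12.7% of all genes. In WENR-plus medium 11 were lower and 10 higher, against 14.9% and 9.94%. Slc5a1, the sodium-glucose cotransporter SGLT1, stood at 0.148 and 0.476 CPM in proximal Cdx2-sgRNA organoids in WENR-minus medium against 58.4 and 70.4 CPM with Scramble-sgRNA. Me1, the cytosolic malic enzyme that turns malate into pyruvate, was at 350.1 and 474 CPM against 70.5 and 89.4 CPM in WENR-plus medium (log2 fold change 2.37 ± 0.41, adjusted p = 0.00195).

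The effect of the Cdx2-sgRNA differed between regions for 9 genes in WENR-minus medium, of which 3 had the higher effect in proximal organoids and 6 the lower one, against 6.2% and 11% of all genes. The difference of log2 fold changes (proximal minus distal) was -1.42 ± 0.21 for Pklr, -1.38 ± 0.23 for Slc16a1, -1.34 ± 0.27 for Hk2, -1.36 ± 0.40 for Slc2a1 and -1.40 ± 0.34 for Fbp2, and Pck1 was also lower. It was 2.51 ± 0.39 for Pfkm, 1.07 ± 0.26 for Pgk1 and 0.92 ± 0.25 for Pgam1. Hk2, Pfkm, Pklr, Slc16a1 and Pck1 were called whichever library was left out, and each of the other calls was lost in some refit. In WENR-plus medium 1 was higher, Pgk1, and 3 were lower, Pklr, Fbp2 and Pck1, against 1.41% and 4.29% of all genes. That count fell to between 0 and 2 without any one library other than replicate 1 of distal Scramble-sgRNA organoids.

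The withdrawal effect itself was smaller in proximal Cdx2-sgRNA than in proximal Scramble-sgRNA organoids for Slc2a1 (-1.59 ± 0.40 for the difference) and Hk2 (-1.10 ± 0.27), which makes 2 genes lower and 0 higher, against 2.3% and 2.08% of all genes. Both are near the threshold, and the count lay between 0 and 1 without any one library other than replicate 2 of proximal Scramble-sgRNA organoids in WENR-minus medium, where it was 3. DESeq2, which gave an adjusted p for 29 of the 31, called 7 genes lower and 0 higher, against 7.63% and 7.36% of all genes. In distal organoids the difference between Cdx2-sgRNA and Scramble-sgRNA was called for 0 genes (0% of all genes higher and 0% lower by edgeR, 5 of the 31 and 9.53% of all genes at an unadjusted p under 0.05). DESeq2 called 1 gene lower there and 0 higher, against 1.08% and 0.806% of all genes. Between proximal and distal Scramble-sgRNA organoids the difference in withdrawal effect was called for 0 of the 31 as well, against 0.0327% of all genes higher and 0.0392% lower (14 of the 31 had an unadjusted p under 0.05, as did 9.83% of all genes, and DESeq2 called 0 higher and 4 lower, against 1.17% and 1.48% of all genes). For Eno3 that difference was -3.56 ± 0.63 on the log2 scale (adjusted p = 0.0775).

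The third comparison sets proximal against distal organoids. With Scramble-sgRNA in WENR-minus medium 12 of 31 genes were lower in proximal organoids and 1 higher, against 5.74% and 4.21% of all genes, and the median was -0.81 against 0.07. The largest differences were those of Eno3 (-5.23 ± 0.48, adjusted p = 0.000134), Pcx (-1.99 ± 0.27, adjusted p = 0.00156), Eno1 (-1.42 ± 0.30, adjusted p = 0.0138), Pgam1 (-1.34 ± 0.18, adjusted p = 0.00142) and Slc16a1 (-1.21 ± 0.16, adjusted p = 0.00151). Pck2 was higher in proximal organoids (1.25 ± 0.23, adjusted p = 0.00726). In the same comparison 4 of 15 colonocyte and 3 of 9 tested enteroendocrine markers were lower, with 1 colonocyte and 1 epithelial marker higher. No stem cell, proliferation or goblet cell marker was called, and the part of the marker shifts was not tested. Eno1, which passed in no other comparison without a block, was lost in 3 of 4 refits. The count of 13 became 4 without replicate 2 of the proximal and 5 or 6 without replicate 1 or 2 of the distal organoids, and Eno3, Pgam1, Slc16a1 and Pcx were called in each refit. In WENR-plus medium, without a block, only Pcx was lower in proximal organoids (-1.36 ± 0.27, adjusted p = 0.0246) and 0 genes were higher, against 1.39% and 0.733% of all genes. This call was lost whichever library was left out.

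With Cdx2-sgRNA more genes were called between the regions, in the list and over all genes alike. In WENR-minus medium 54.8% of the 31 genes and 49% of all genes were called, against 41.9% and 9.95% with Scramble-sgRNA. In WENR-minus medium 14 genes were lower and 3 higher in proximal organoids, against 24.4% and 24.6% of all genes. TMM factors were 1.08 and 1.13 in these proximal and 0.700 and 0.656 in these distal libraries. Before scaling, the 34 genes took 1.60 and 1.49% of counts in the proximal and 1.51 and 1.37% in the distal libraries, which overlap. The median was -0.54 over the 31 genes and 0.13 over all genes. Pck1 was at least 142-fold lower (adjusted p = 0.000114, and at least 75.9-fold without replicate 1 of the distal organoids), and Eno3 (-5.88 ± 0.51, adjusted p = 6.81e-06), Slc16a1 (-2.60 ± 0.17, adjusted p = 1.04e-06), Hk2 (-1.96 ± 0.20, adjusted p = 1.99e-05) and Slc2a1 (-1.94 ± 0.29, adjusted p = 0.000298) were the next largest. Pfkm (2.23 ± 0.28, adjusted p = 9.52e-05), Pck2 (1.93 ± 0.24, adjusted p = 7.53e-05) and G6pc3 (0.76 ± 0.25, adjusted p = 0.0245) were higher. In WENR-plus medium 8 were lower and 2 higher, against 18.1% and 11.3% of all genes. Pck1 was at least 51.3-fold lower (adjusted p = 0.00146), a bound that was 14.3-fold without replicate 1 of the distal organoids and 88.2-fold without replicate 2. Slc2a5, which passed the filter on low counts only through the libraries where it was higher, had 0 reads in both libraries against 24 and 5. Its bound was 4.93-fold, and 1.59-fold and 8.27-fold without replicates 1 and 2 of the distal organoids. Eno3 (-1.42 ± 0.45, adjusted p = 0.0358), Pklr (-1.27 ± 0.15, adjusted p = 0.000172), Hk2 (-0.86 ± 0.19, adjusted p = 0.00701), Fbp2 (-0.77 ± 0.24, adjusted p = 0.0339), Slc16a1 (-0.76 ± 0.16, adjusted p = 0.00577) and Pfkl (-0.53 ± 0.16, adjusted p = 0.0276) were lower, while Pgk1 (0.77 ± 0.18, adjusted p = 0.0101) and Pdk1 (0.61 ± 0.20, adjusted p = 0.0406) were higher. Slc2a5, Eno3, Pfkl, Fbp2 and Pdk1 were called in 1 of 4 refits each. The count of 10 fell to 4 without replicate 1 and 6 without replicate 2 of the distal organoids and to 5 without replicate 2 of the proximal organoids. Proliferation markers were higher in proximal Cdx2-sgRNA organoids in WENR-minus medium (14 of 15, with 1 lower) and colonocyte markers lower (12 of 15). There, 9 of 9 tested goblet cell, 8 of 9 tested enteroendocrine and 5 of 7 epithelial markers were lower too. Also, 3 of 10 stem cell markers and 1 epithelial marker were higher. With the factors present, 9 of 15 colonocyte, 9 of 9 tested goblet cell and 8 of 9 tested enteroendocrine markers were lower proximally. So were 5 of 15 proliferation, 4 epithelial and 3 stem cell markers, while 1 colonocyte marker was higher. The part of these marker shifts in the regional differences was not tested. Each library enters comparisons of medium, guide and region, so calls in these comparisons are not independent of each other.

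Slc16a3 (MCT4), the lactate exporter of strongly glycolytic cells, differed more between cultures than between groups, taking the same replicate number in both media as 1 culture. With Scramble-sgRNA, proximal replicate 1 had 0.0478 CPM in WENR-plus and 0.0619 CPM in WENR-minus medium, whereas replicate 2 had 3.61 and 2.76 CPM. With Cdx2-sgRNA, proximal replicate 1 had 8.35 and 12.8 CPM and replicate 2 had 0.0528 and 0.370 CPM. Distal Scramble-sgRNA replicate 1 had 7.30 and 24.0 CPM against 0.537 and 1.65 CPM in replicate 2, and distal Cdx2-sgRNA replicate 1 had 0.630 and 3.30 CPM against 30.0 and 52.7 CPM in replicate 2. In each of the 4 lines 1 culture was thus high in both media and the other low in both, and the high culture was not the same replicate number throughout. The highest library was at least 367-fold above the lowest, which held 1 read and was taken at 3 reads, and no comparison of groups passed. With each culture compared with itself, Slc16a3 was higher in WENR-minus medium in distal Scramble-sgRNA (log2 fold change 1.69 ± 0.36, adjusted p = 0.00325) and distal Cdx2-sgRNA organoids (1.25 ± 0.33, adjusted p = 0.00941). The same fit with a term per culture raised the calls to 14 in proximal Scramble-sgRNA, 25 in distal Scramble-sgRNA and 22 in distal Cdx2-sgRNA organoids (11 higher and 3 lower, 23 and 2, and 18 and 4), against 22.4% of all genes higher and 19.5% lower, 25.1% and 25.7%, and 27.4% and 28.6%, respectively. It kept all earlier calls and added Pck1 as higher in these 3 lines (0.84 ± 0.29, 0.94 ± 0.29 and 1.91 ± 0.31).

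**Figure D5:**
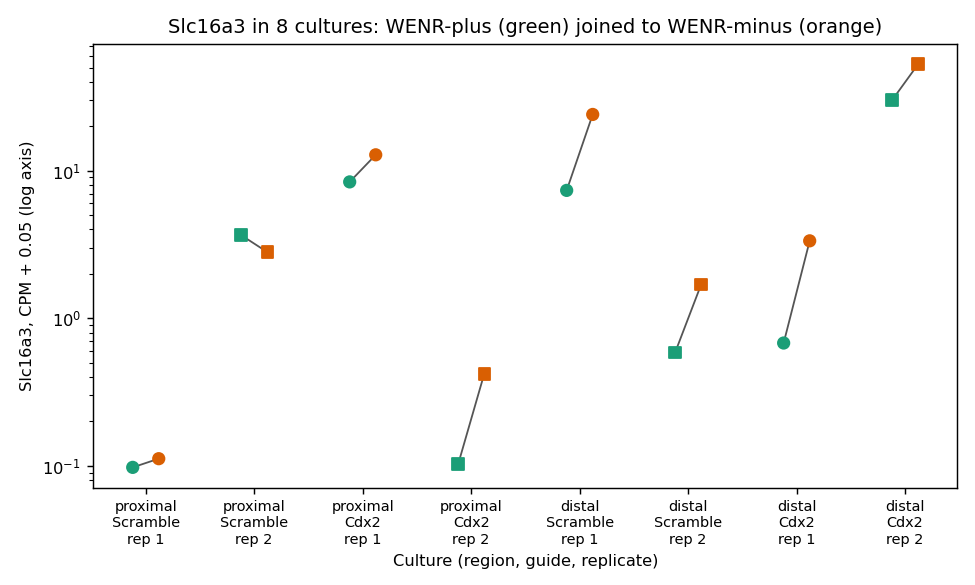
Slc16a3 in the 8 cultures (x axis), as CPM + 0.05 on a log axis, with WENR-plus (green) joined to WENR-minus medium (orange) of the same culture, circles for replicate 1 and squares for replicate 2. In every pair of cultures 1 is high in both media and the other low, and the 2 cultures are further apart than the media.

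The replicate numbers recur in every group, and organoids came from 2 mice, so the comparisons were also fitted with a replicate block over all groups, which lost no call and added several. With the block, the regional gap of Eno3 in Scramble-sgRNA organoids (proximal minus distal) was called in WENR-plus medium too (log2 fold change -1.69 ± 0.24, adjusted p = 0.00512), and its withdrawal effect differed between the regions (-3.49 ± 0.34, adjusted p = 0.004). Eno3 was also higher on withdrawal in proximal Scramble-sgRNA organoids (0.80 ± 0.25, adjusted p = 0.033) and lower with Cdx2-sgRNA in proximal WENR-minus organoids (-1.03 ± 0.26, adjusted p = 0.0117). Eno1 was higher on withdrawal in distal Scramble-sgRNA organoids (0.67 ± 0.22, adjusted p = 0.0333) and with Cdx2-sgRNA in proximal WENR-minus organoids (0.67 ± 0.22, adjusted p = 0.0402). Pck1 was higher on withdrawal in distal Cdx2-sgRNA organoids (1.75 ± 0.57, adjusted p = 0.0254), and Aldoa with Cdx2-sgRNA in proximal WENR-plus organoids (0.59 ± 0.19, adjusted p = 0.0406). Hk2 (-0.63 ± 0.17, adjusted p = 0.0393) and Ldha (-0.66 ± 0.18, adjusted p = 0.0382) were lower in proximal Scramble-sgRNA organoids in WENR-minus medium. The effect of the Cdx2-sgRNA on Hk2 in WENR-plus medium differed between regions (-0.98 ± 0.24, adjusted p = 0.0353), as did the withdrawal effect on Slc16a1 between the proximal lines (-0.89 ± 0.23, adjusted p = 0.0451). With a block per culture, Tpi1, Eno1 and Gapdh were higher on withdrawal in both distal lines (adjusted p from 0.000744 to 0.0417). That block also called Eno3 higher (0.80 ± 0.22, adjusted p = 0.0145) and Pck2 lower (-0.62 ± 0.19, adjusted p = 0.0239) in proximal Scramble-sgRNA organoids and Aldoc higher in distal Cdx2-sgRNA organoids (0.70 ± 0.19, adjusted p = 0.00992). Pdk1 was called lower in proximal Scramble-sgRNA organoids (-0.41 ± 0.15, adjusted p = 0.0483) and higher in distal Scramble-sgRNA organoids (0.52 ± 0.15, adjusted p = 0.0137). Without a block, the withdrawal effect on Pdk1 differed between these lines by -0.91 ± 0.28 (proximal minus distal), which did not pass (adjusted p = 0.299).

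Across the 16 libraries, the genes outside the 34 whose log2 CPM ran most closely with Pck1 were Plcl2, Slc38a11 and Klk1 (Pearson r of 0.98 for each over 16 libraries). Those closest to Eno3 were Slc37a2 (r = 0.98), Trak1 and Nr1i3 (r = 0.97 for both). For Slc16a3, Lrrc71 (r = 0.77) and Zhx2 (r = 0.75) were among the closest. These values describe likeness over libraries that share groups, media and cultures.

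Of the members not yet described, Slc2a2, the transporter of liver and islets, was at most 0.264 CPM, Eno2, the neuronal enolase, at most 0.159 CPM, and Fbp1 at most 0.0537 CPM, so that these 3 were at or near the level of 3 reads, 0.143 to 0.254 CPM, in each library. Ldhb reached 1.27 and 1.59 CPM in replicate 2 of proximal Cdx2-sgRNA organoids in WENR-plus and WENR-minus medium and was at most 0.172 CPM elsewhere. Aldoc ranged from 52.5 to 173 CPM. Tpi1 ranged from 255 to 534 CPM and passed in no comparison without a block. Some reads are shared with near-identical copies: Pgam1-ps2 held 30.2 to 37.7% of the reads of Pgam1 and this copy together, and Eno1b 2.43 to 4.55% of those of Eno1 and Eno1b in the 8 libraries of replicate 1 and 16.9 to 28.1% in the 8 of replicate 2. Adding the copies to their gene changed no count of calls in any comparison.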

How the data were processed

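RNA of 16 organoid libraries was prepared with a stranded total RNA kit and sequenced on a HiSeq. Per the study's methods and the labels, the authors quantified transcripts of GENCODE vM23 with Salmon 1.1.0, and the deposited tables hold estimated counts and TPM (transcripts per 1000000, scaled by the authors for transcript length and depth) per transcript. The authors tested with DESeq2 (sources differ on its version); those results were not used. Here, estimated counts were summed over the transcripts of each gene (139864 of 140748 transcripts matched GENCODE vM21; the other 884, with 0.257 to 0.509% of reads, were left out) and rounded. Salmon can split reads between near-identical copies.

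Genes passing edgeR's filterByExpr (15289) were tested with edgeR 4.0.16 in R 4.3.3 (TMM, quasi-likelihood, prior count 0.125), with 1 coefficient for each of 8 groups and 8 residual degrees of freedom, in 12 group comparisons and 5 differences of effects. Benjamini-Hochberg adjustment ran over all genes, and an adjusted p under 0.05 counted as called. The study's DESeq2 (here 1.42.0) was an alternative, beside other scaling, filters, a fold threshold of 2, length-scaled counts, copies added, replicate blocks and each library left out. The scripts were tested on simulated data. A group with at most 3 reads in every library was set to 3 reads per library, and its fold is a lower bound. Counting floors cover counting error only.

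The organoids came from 2 mice per the study, and the labels number the replicates alike in every group without saying that a number is a mouse. The Eno1b share of Eno1 reads separated the numbers in all 8 groups, so calls that change with a replicate block are given. Deviations from group means correlated between -0.06 and 0.59 (median 0.07) over 28 pairs of groups, 9 of them over 0.1. Within a line the media correlated at 0.41, 0.59, 0.28 and 0.40 (proximal Scramble-sgRNA, proximal Cdx2-sgRNA, distal Scramble-sgRNA, distal Cdx2-sgRNA). Members and gene lists were chosen with earlier results of these data known. In each comparison the called members were named, or beyond 10 the 5 with the largest change each way and any called nowhere else; replicate values were given for members called in 4 or more group comparisons or ranging over 4-fold between group means; other genes came from fixed lists, at most 4 per comparison by size of change. Me1 in WENR-plus medium and Pfkfb4 in distal Scramble-sgRNA organoids were chosen after their values were seen. Figures used matplotlib 3.10.9. Some genes are not reported here.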

Additional observations from a re-analysis of the deposited data

Results flagged for a closer look

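For 15 results the effect in 1 region or line differed from that in another by a test of the difference itself (edgeR quasi-likelihood test, log2 scale). The effect of the Cdx2-sgRNA in WENR-minus medium, proximal minus distal, was -1.36 ± 0.40 (SE) for Slc2a1 (adjusted p = 0.0385), -1.34 ± 0.27 for Hk2, -1.42 ± 0.21 for Pklr, -1.38 ± 0.23 for Slc16a1 and -1.40 ± 0.34 for Fbp2. It was 2.51 ± 0.39 for Pfkm, 1.07 ± 0.26 for Pgk1 and 0.92 ± 0.25 for Pgam1. For Pck1 the fitted difference was -8.56, a value that depends on the prior count because proximal Cdx2-sgRNA libraries held at most 2 reads. The calls of Slc2a1, Fbp2, Pgk1 and Pgam1 were each lost in some refit that left out a library.

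In WENR-plus medium the same difference was 1.06 ± 0.26 for Pgk1, -1.07 ± 0.21 for Pklr and -1.32 ± 0.34 for Fbp2, and the fitted value for Pck1, which again depends on the prior count, was -5.69. The effect of withdrawal in proximal Cdx2-sgRNA minus that in proximal Scramble-sgRNA organoids was -1.59 ± 0.40 for Slc2a1 and -1.10 ± 0.27 for Hk2.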

How the results depend on the processing

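No called member changed sign in any alternative, and of 127 calls 67 were made in every refit that left out 1 library. The cause of the shifts below was not tested. With no filter on low counts, called members numbered 2 for the Cdx2-sgRNA in distal WENR-plus organoids, 5 for region with Scramble-sgRNA in WENR-plus medium, 7 for the regional difference of the Cdx2-sgRNA effect in WENR-plus medium, 6 for the proximal difference in withdrawal effect and 3 for the regional one. Of all genes, 2.49% and 4.9% were called in the first 2 of these, against 0.262% and 2.12% in the main fit. No share of all genes is given for the differences of effects under this setting. With at least 10 counts in every library, withdrawal in proximal Cdx2-sgRNA organoids gave 8, against 22% of all genes (13.5% in the main fit). DESeq2 gave 7 for that comparison (22% of all genes) and 2 for region with Scramble-sgRNA in WENR-plus medium (5.54%). It gave 7, 1 and 4 for the proximal, distal and regional differences in withdrawal effect, whose shares of all genes are given above. With a fold change over 2, counts were 4 and 0 for withdrawal in proximal Scramble-sgRNA and Cdx2-sgRNA organoids, 6, 4 and 1 for the Cdx2-sgRNA in proximal WENR-minus, proximal WENR-plus and distal WENR-minus organoids, and 8 and 4 for region with Scramble-sgRNA in WENR-minus and with Cdx2-sgRNA in WENR-plus medium. No share of all genes is given for this threshold. Length-scaled counts gave 1 for the Cdx2-sgRNA in distal WENR-minus organoids (7.25% of all genes) and 1 for the proximal difference in withdrawal effect.

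A replicate block gave 2 for region with Scramble-sgRNA in WENR-plus medium (2.86% of all genes) and 1 for the regional difference in withdrawal effect, and lost no call. A replicate block per culture gave 9 for withdrawal in proximal Cdx2-sgRNA organoids, against 15.2% of all genes higher and 11.2% lower. Without 1 library, counts ranged from 4 to 10 and 1 to 4 for withdrawal in proximal Scramble-sgRNA and Cdx2-sgRNA organoids, 4 to 7 and 0 to 1 for the Cdx2-sgRNA in proximal WENR-plus and distal WENR-minus organoids, 4 to 12 and 0 to 0 for region with Scramble-sgRNA in WENR-minus and WENR-plus medium, 4 to 8 for region with Cdx2-sgRNA in WENR-plus medium, 5 to 9 and 0 to 4 for the regional difference of the Cdx2-sgRNA effect in WENR-minus and WENR-plus medium, and 0 to 3 for the proximal difference in withdrawal effect. Over all genes, calls for the Cdx2-sgRNA in distal WENR-plus organoids numbered 40 against 682 with no filter and 211 by DESeq2. With genes at the floor set to their bound, the list's median moved from -0.36 to -0.35 for the Cdx2-sgRNA in distal WENR-minus organoids and from -0.81 to -0.79 for region with Scramble-sgRNA in WENR-minus medium. Depths of 12465194 to 18922143 counts leave genes near 3 reads unresolved.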
